A study of Mus musculus with 10 samples.

Results

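The 10 genes described here are encoded in mitochondrial DNA and specify proteins of the respiratory chain: mt.Nd1, mt.Nd2, mt.Nd3, mt.Nd4 and mt.Nd5 of complex I, mt.Cytb of complex III, mt.Co1, mt.Co2 and mt.Co3 of complex IV, and mt.Atp6 of complex V. They were taken by symbol, with a point in place of the hyphen, and all 10 were found both among the 15498 genes of the E15.5 table and among the 15989 genes of the adult table. All mitochondrial genes together, with ribosomal and transfer RNAs, were 34 in the E15.5 table and 30 in the adult table. RNA came from hearts of C57BL/6 mice that lacked or carried LARP7, which binds and stabilises 7SK, a nuclear noncoding RNA that keeps the transcription kinase P-TEFb in check. The embryonic groups were whole E15.5 hearts of Larp7-/- embryos (3 samples), a constitutive genotype, and of Larp7+/+ embryos (3 samples). The adult groups were heart apices of mice 4 months old. The adult knockout, mCKO, was Myh6Cre;Larp7f/f (2 samples), in which Cre is driven by the cardiomyocyte promoter of Myh6. Its control, CTR, was Larp7f/f without Cre (2 samples), so both adult groups carried the floxed alleles. No label states that replicates are different animals, so a p-value here reflects the spread among these samples and nothing wider. Much of that spread is pooled over genes, in the adult nearly all of it.

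Mitochondrial DNA is a small circle that is read from both strands into long precursor RNAs. These are cut, largely at the transfer RNAs that lie between the genes, into separate messenger RNAs that most often receive a short poly(A) tail. The encoded proteins form the membrane core of the respiratory complexes, and every other subunit is made from nuclear genes and imported. Heart muscle depends on these complexes for most of its ATP, and cardiomyocytes gain mitochondria as the heart matures.

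In the GENCODE M21 annotation of mm10 all 10 genes lie on the plus strand of chromosome M, each as a single exon. In order along the molecule they are mt.Nd1 (chrM:2751-3707), mt.Nd2 (chrM:3914-4951), mt.Co1 (chrM:5328-6872), mt.Co2 (chrM:7013-7696), mt.Atp6 (chrM:7927-8607), mt.Co3 (chrM:8607-9390), mt.Nd3 (chrM:9459-9806), mt.Nd4 (chrM:10167-11544), mt.Nd5 (chrM:11742-13565) and mt.Cytb (chrM:14145-15288). The stretch from the end of mt.Co1 into mt.Nd4 (chrM:6381-11042) has an annotated copy in the nucleus, on the minus strand of chromosome 1 (chr1:24611535-24616197). Its pieces are annotated as the unprocessed pseudogenes Gm29216 (mt.Co1), Gm28661 (mt.Co2), Gm10925 (mt.Atp6), Gm28437 (mt.Co3), Gm28438 (mt.Nd3), Gm10222 (mt.Nd4l, a complex I gene outside the 10) and Gm28439 (mt.Nd4). The annotated copies of mt.Co2, mt.Atp6, mt.Co3, mt.Nd4l and mt.Nd4 matched the mitochondrial gene over 681, 678, 783, 294 and 876 bases with 0 mismatches. That of mt.Nd3 matched over 345 bases with 1 mismatch, and that of mt.Co1 covered 492 of its 1545 bases with 6 mismatches. The sequences below show how far reads can tell gene from copy. Each is written in the gene's own direction, in lower case, with the bases that differ between gene and copy in capitals. The first pair is the start of mt.Co2 (chrM:7013-7072, plus strand) and of its copy (chr1:24615506-24615565, minus strand), which are identical. The second pair is the start of mt.Nd3 (chrM:9459-9518) and of its copy (chr1:24613060-24613119), which hold the single mismatch. The third pair is the edge of the copied block inside mt.Co1 (chrM:6381-6440, and chr1:24616138-24616197), which holds all 6 mismatches of that gene.
mt.Co2: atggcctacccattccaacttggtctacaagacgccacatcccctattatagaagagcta
Gm28661: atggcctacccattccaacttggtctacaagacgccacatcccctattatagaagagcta
mt.Nd3: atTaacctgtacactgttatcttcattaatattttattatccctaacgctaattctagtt
Gm28438: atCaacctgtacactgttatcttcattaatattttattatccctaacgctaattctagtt
mt.Co1: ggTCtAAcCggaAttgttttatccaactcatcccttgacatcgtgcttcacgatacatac
Gm29216: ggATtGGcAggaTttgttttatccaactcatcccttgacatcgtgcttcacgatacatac
Counted from 1 at the first base of the mitochondrial gene, the mt.Nd3 mismatch is T3C, and those of mt.Co1 are T1056A, C1057T, A1059G, A1060G, C1062A and A1066T.

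The 10 genes thus differ in how much of their sequence is their own. Each gene was divided into overlapping stretches of 50 bases, and a stretch counted as shared when it occurs in another annotated transcript. The shared part was 0% in mt.Nd1, 0% in mt.Cytb, 7.61% in mt.Nd5 and 8.19% in mt.Nd2. It was 51.1% in mt.Co1 and 62.2% in mt.Nd4. In mt.Co1, 28.7% of stretches occur in Gm29216, so the rest of its shared part lies in other annotated transcripts. It was 98% in mt.Nd3, 99.5% in mt.Atp6, 99.9% in mt.Co3 and 100% in mt.Co2. Unannotated nuclear copies were not searched. The treatment of reads that fit both places is not given in the labels or headers, so the values of the last 6 genes are uncertain. Values of mt.Nd1, mt.Nd2, mt.Nd5 and mt.Cytb are the ones least open to this.

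The deposited tables give whole-number, per-million values, and each sample sums to between 998498 and 1001508, so the sequencing depth is unknown. In nearly every gene the sum of knockout 1 and control 1 equals that of the other numbered pairs, and in all 10 genes here these sums differed by at most 2. A high value in one sample of a pair therefore goes with a low value in its partner, both groups show almost the same SD, and the numbered pairs, not the samples, are the independent units. With such fixed sums, groups without overlap are the same as every numbered pair pointing one way. No overlap is thus no evidence beyond the direction of the pairs. Larp7, the targeted gene, was 45, 54 and 40 in Larp7-/- hearts and 96, 88 and 103 in Larp7+/+ hearts, and it fell (log2 change -1.04, limma, adjusted p = 0.00159). In the adult apex it was 26 and 24 in mCKO and 26 and 28 in CTR, so the gene's level does not check the adult genotype. Krt15, a keratin of stratified epithelium, was 74, 19 and 19 in Larp7-/- hearts and 36, 18 and 18 in Larp7+/+ hearts, so number 1 of the knockout stands apart, and the 36 fits the pair sum only if its sign is reversed.

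The first question was how the mitochondrial messenger RNAs stood in embryonic hearts without Larp7. All 10 had a lower mean in Larp7-/- than in Larp7+/+ hearts, with log2 changes (on the log2(value + 1) scale) between -1.27 for mt.Nd2 and -0.35 for mt.Co3 and a median of -0.95. The median over all 13609 genes tested was 0.107, and that of the 93 genes with a mean value of at least 1000 was -0.11. A log2 change below 0 was found in 10 of 10 of these genes and in 39.5% of all genes tested. In 7 of 10 the Larp7-/- values all lay below the Larp7+/+ values, as they did in 8.75% of all genes. No single gene of the 10 passed the test: 0 of 10 were called lower and 0 higher at an adjusted p under 0.05 (limma, over all genes), where 0.103% of all genes were called lower and 0.529% higher. At an unadjusted p under 0.05, 4 of 10 were lower and 0 higher, against 3.62% of all genes lower and 10.3% higher. The pairs were unequal: the median log2 difference of the 10 genes was -0.13 in number 1, -1.32 in number 2 and -0.87 in number 3, and 7, 10 and 10 of 10 genes were below 0 there. The share of all genes below 0 within single numbers is not given here, so these counts describe the 10 genes only. Left out in turn, number 1 gave 4 called genes (mt.Nd2, mt.Nd3, mt.Nd4 and mt.Nd5), number 2 gave 3 (mt.Nd1, mt.Nd4 and mt.Cytb) and number 3 gave 1 (mt.Nd4). Of all genes 14 were called lower with every sample in, 40 to 42 without number 1, 84 to 87 without number 2 and 81 to 85 without number 3. In the authors' deposited table, 3 of the 9 genes with an adjusted p are below 0.05 (mt.Nd1, mt.Nd4 and mt.Cytb), where 0.538% of the 2601 genes with such a p are below 0.05 and lower.

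**Figure D1:**
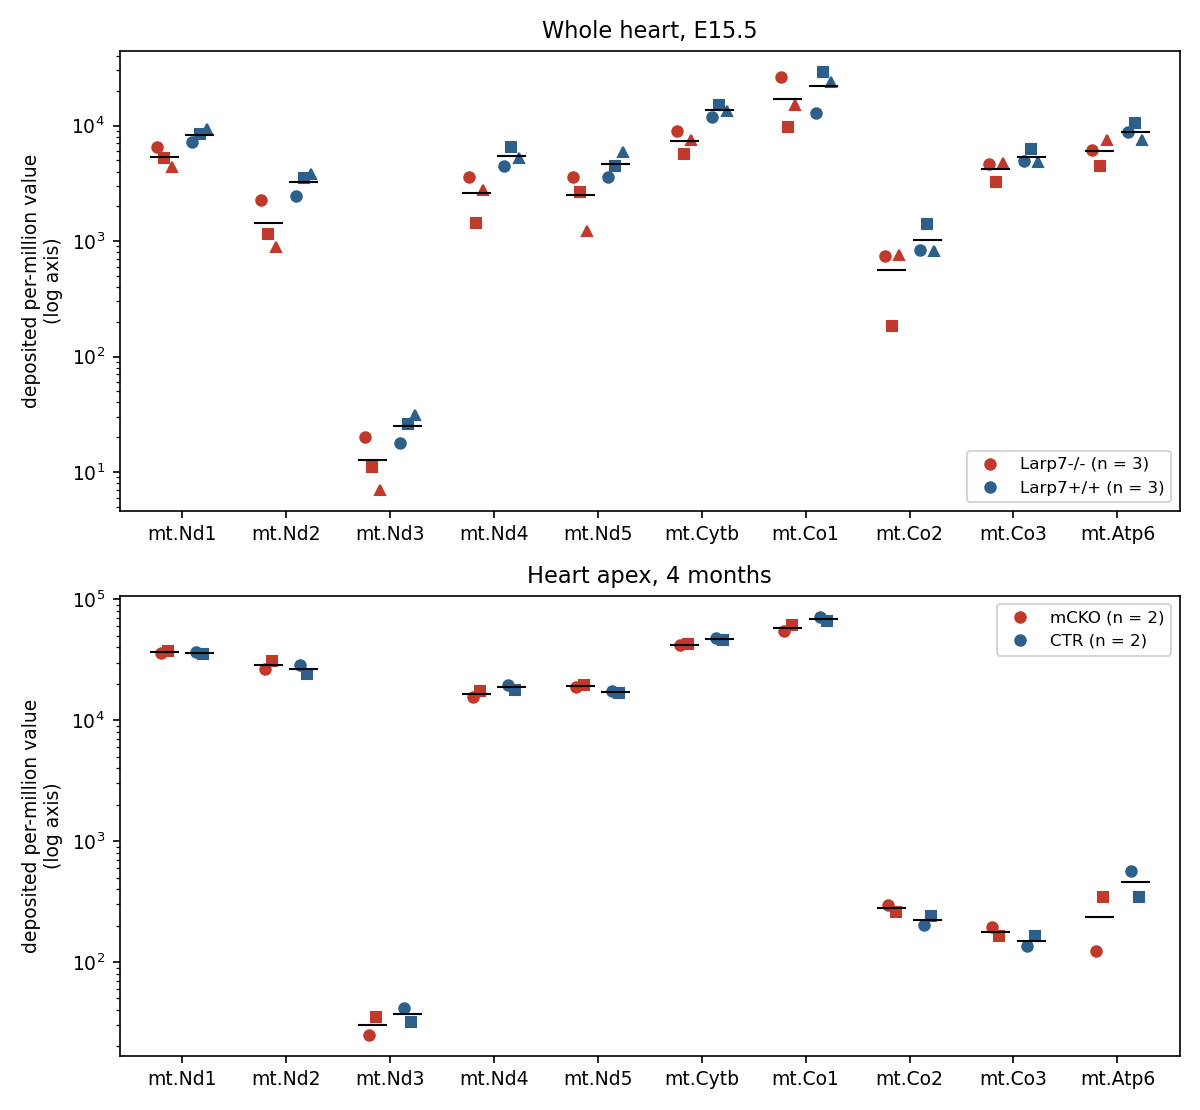
Deposited per-million value (log axis) of each of the 10 genes in every sample, with knockout in red left of control in blue, horizontal bars at the group mean, and circles, squares and triangles for replicate numbers 1, 2 and 3. At E15.5 every knockout mean lies below its control mean, with 3 of 10 genes overlapping between groups; in the adult apex mt.Nd3, mt.Co2, mt.Co3 and mt.Atp6 lie at 570 or less and the other 6 genes at 15539 or more.

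Complex I takes electrons from NADH, and its mitochondrial subunits form the proton-pumping arm in the membrane. mt.Nd1, which sits where that arm meets the ubiquinone site, had values of 6515, 5274 and 4365 in Larp7-/- hearts and 7160, 8401 and 9310 in Larp7+/+ hearts. The Larp7-/- samples were all below the Larp7+/+ samples, at 65.0% of their mean (log2 change -0.63, SE 0.22, limma, unadjusted p = 0.00791, adjusted p = 0.182). mt.Nd2, an antiporter-like subunit, had 2250, 1153 and 895 in Larp7-/- hearts and 2438, 3535 and 3793 in Larp7+/+ hearts. Number 1 was close in both groups while numbers 2 and 3 lay far apart, and the groups did not overlap (log2 change -1.27, SE 0.47, adjusted p = 0.391). mt.Nd4, another antiporter-like subunit, had 3565, 1434 and 2783 in Larp7-/- hearts and 4444, 6576 and 5227 in Larp7+/+ hearts, again without overlap. The Larp7-/- mean was 47.9% of the Larp7+/+ mean (log2 change -1.14, SE 0.38, unadjusted p = 0.0307, adjusted p = 0.298). mt.Nd5, the antiporter-like subunit at the far end of the arm, had 3604, 2671 and 1222 in Larp7-/- hearts and 3559, 4493 and 5941 in Larp7+/+ hearts. Its groups overlapped in number 1 (log2 change -1, SE 0.59, adjusted p = 0.580), and its log2 change was -0.37 without number 3 and -1.52 without number 1. mt.Nd3, a small subunit with a loop near the ubiquinone site, was by far the lowest of the 10, at 20, 11 and 7 in Larp7-/- hearts and 18, 26 and 31 in Larp7+/+ hearts. Its groups overlapped too (log2 change -1.01, SE 0.48, adjusted p = 0.479), and its log2 change was -0.51 without number 3 and -1.58 without number 1. Of the 3 other complex I genes, mt.Nd1 had a log2 change of -0.40 without number 3, and mt.Nd4 had -0.61 without number 2.

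mt.Cytb, the subunit of complex III that holds both of its quinone sites, came nearest to the threshold. It had 8952, 5683 and 7499 in Larp7-/- hearts and 11942, 15212 and 13396 in Larp7+/+ hearts. It was lower in each of the 3 numbered pairs, so the groups did not overlap. The means were 7378 ± 1638 and 13517 ± 1638 (SD, n = 3 each), a log2 change of -0.89 (SE 0.23, limma, unadjusted p = 0.000568, adjusted p = 0.0629). The authors' deposited table gives mt.Cytb a log2 fold change of -0.93 and an adjusted p of 0.000261. No stretch of mt.Cytb is shared with another annotated transcript.

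Complex IV passes electrons to oxygen. mt.Co1, its catalytic subunit with the haem a groups, had the highest values of the 10 and the least regular ones: 26220, 9798 and 15118 in Larp7-/- hearts and 12880, 29302 and 23982 in Larp7+/+ hearts. Number 1 was higher in the knockout and numbers 2 and 3 were lower, so the groups overlapped (log2 change -0.41, SE 0.65, limma, adjusted p = 0.849). Without number 2 the log2 change was 0.18. mt.Co2, which carries the copper site that receives electrons from cytochrome c, had 747, 183 and 751 in Larp7-/- hearts and 831, 1395 and 827 in Larp7+/+ hearts. The groups did not overlap, but the difference lay almost wholly in number 2 (log2 change -1.07, SE 0.88, adjusted p = 0.707), and without number 2 it was -0.15. mt.Co3, the third core subunit, had 4646, 3275 and 4756 in Larp7-/- hearts and 4914, 6285 and 4803 in Larp7+/+ hearts (log2 change -0.35, SE 0.22, adjusted p = 0.501), and without number 2 its log2 change was -0.05.

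mt.Atp6 forms the proton path of the ATP synthase, complex V, next to its rotating ring. It had 6183, 4479 and 7429 in Larp7-/- hearts and 8721, 10424 and 7474 in Larp7+/+ hearts. Number 3 was nearly equal in both groups, although no Larp7-/- value exceeded a Larp7+/+ value (log2 change -0.57, SE 0.23, limma, unadjusted p = 0.0215, adjusted p = 0.261). Without number 2 its log2 change was -0.25, and without number 3 it was -0.86.

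**Figure D2:**
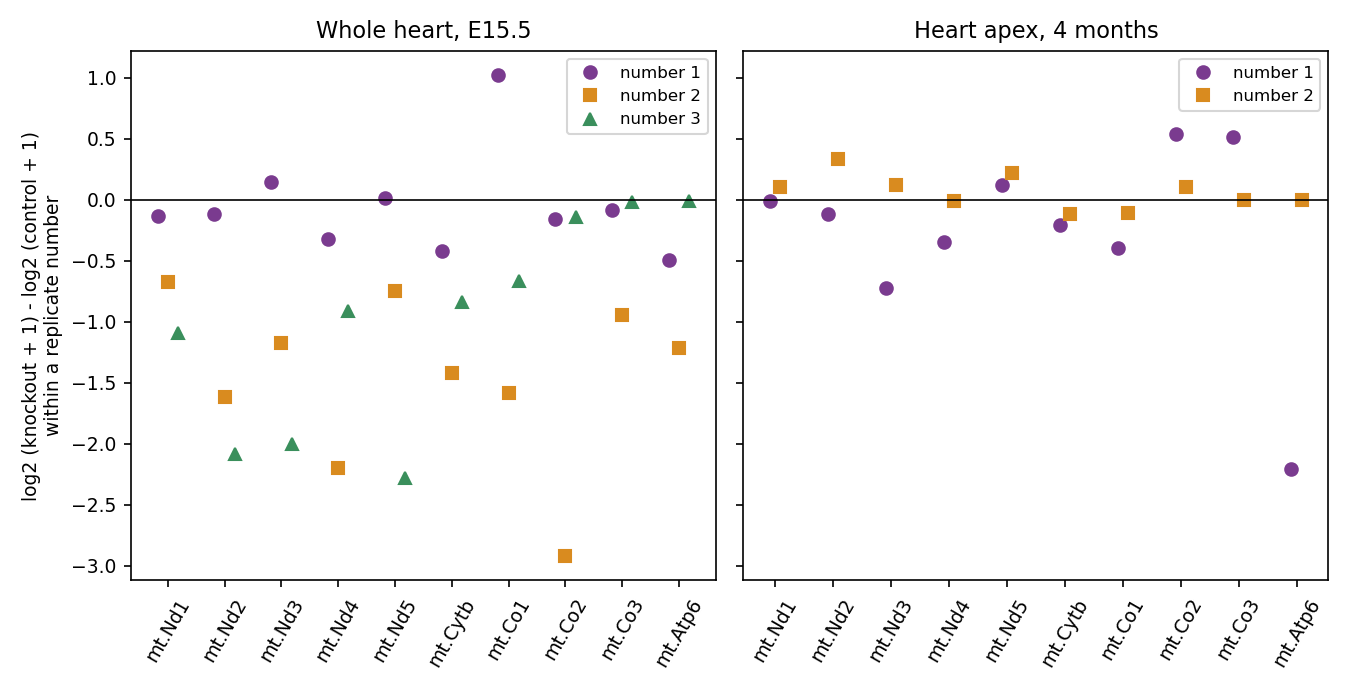
Difference of log2(value + 1), knockout minus control, within each replicate number for each of the 10 genes, in the embryonic heart (left) and the adult apex (right), with a line at 0. At E15.5 number 2 lies below 0 for every gene, number 1 ranges from -0.50 to 1.03, and number 3 is near 0 for mt.Co2, mt.Co3 and mt.Atp6 and at -2.28 for mt.Nd5; in the adult most points lie within 0.5 of 0.

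The genes were also set out by how much of their sequence is shared. In number 3 the 4 genes with under 10% of shared stretches had log2 differences between -2.28 and -0.84 with a median of -1.59. In the same number the 4 genes with over 95% shared had a median of -0.08, with mt.Co2, mt.Co3 and mt.Atp6 between -0.14 and -0.01 and mt.Nd3, at values of 7 and 31, at -2. In number 2 the medians of these classes were close, at -1.09 for the little-shared and -1.19 for the mostly shared genes, and in number 1 they were -0.13 and -0.12. The classes rest on 4 genes each and were set out after the values were known, so these are descriptions without a test. Over all 3 numbers the median log2 change was -0.95 in the little-shared genes, -0.77 in mt.Nd4 and mt.Co1, and -0.79 in the mostly shared genes.

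In the E15.5 table the copies of mt.Atp6, mt.Co3 and mt.Co2 had nearly the values of the genes they copy. The ratio of gene to copy over the 6 samples was 1.03 to 1.04 for mt.Atp6 and Gm10925, 0.988 to 0.999 for mt.Co3 and Gm28437, and 0.880 to 0.999 for mt.Co2 and Gm28661. Gm10925, for instance, had 5972, 4358 and 7157 in Larp7-/- hearts and 8446, 10061 and 7262 in Larp7+/+ hearts, sample by sample within 4% of mt.Atp6. For mt.Nd3 and Gm28438, at values of 38 or less, it was 0.786 to 1.75. For mt.Nd4, of which a part lies outside the block, the ratio to Gm28439 was 1.92 to 3.51. For mt.Co1 it was 3.46 to 60.1: Gm29216, the copy of its last part, had 6536, 163 and 4243 in Larp7-/- hearts and 2109, 8481 and 4402 in Larp7+/+ hearts. Gm29216 and mt.Co1 were both higher in the knockout in number 1 and both lower in number 2. When the values of gene and copy were summed, mt.Co2 (log2 change -1.06), mt.Atp6 (-0.58), mt.Co3 (-0.35), mt.Nd4 (-1.11), mt.Co1 (-0.45) and mt.Nd3 (-1.16) remained uncalled (limma, lowest adjusted p = 0.281).

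**Figure D3:**
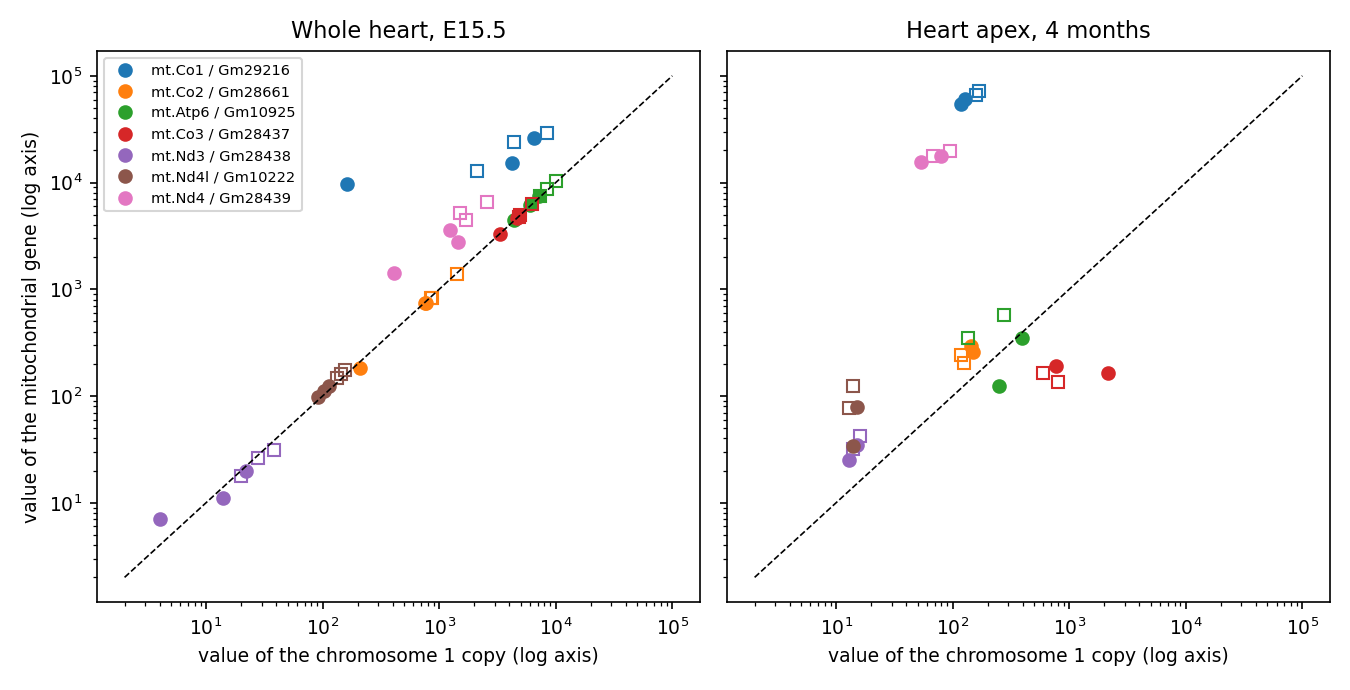
Value of each mitochondrial gene in the copied block against the value of its chromosome 1 copy, both on log axes, 1 point per sample, with filled circles for knockout, open squares for control and a dashed line where gene and copy are equal. In the E15.5 heart mt.Co2, mt.Atp6, mt.Co3 and mt.Nd4l lie close to the line, whereas in the adult apex mt.Co1 and mt.Nd4 lie more than 200 times above it and mt.Co3 lies below it.

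Summed, the 10 genes held 6.28, 3.40 and 4.49% of all values in the Larp7-/- samples and 5.69, 8.57 and 7.47% in the Larp7+/+ samples, and the groups overlapped. The 4 little-shared genes held 1.67 ± 0.404% in Larp7-/- hearts and 2.97 ± 0.401% in Larp7+/+ hearts (SD, n = 3 each), with ranges of 1.40 to 2.14% and 2.51 to 3.24% that did not overlap. The chromosome 1 copies held a further 1.55 ± 0.600% in Larp7-/- hearts and 2.21 ± 0.600% in Larp7+/+ hearts. With 3 numbers, exchanging groups within numbers cannot give a two-sided p below 0.25, so these shares were not tested.

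Levels of different genes can be set side by side only per length. If the deposited values are not already divided by gene length, which the sources used here do not say, the order by mean value per 1000 bases was the same in both embryonic groups: mt.Co1, mt.Atp6, mt.Cytb, mt.Nd1, mt.Co3, mt.Nd4, mt.Nd2, mt.Nd5, mt.Co2 and mt.Nd3. In the Larp7-/- hearts the level per 1000 bases ran from 11033 ± 5423 for mt.Co1 to 36.4 ± 19.1 for mt.Nd3 (SD, n = 3). In the Larp7+/+ hearts it ran from 14275 ± 5423 to 71.8 ± 18.8 (SD, n = 3). Neighbours in this order were mostly closer than the sum of their SDs. The gaps beyond it were those between mt.Co3 and mt.Nd4 and between mt.Co2 and mt.Nd3 in both groups, and between mt.Cytb and mt.Nd1 in the Larp7+/+ hearts.

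The other mitochondrial genes at E15.5 were measured beside the 10. mt.Nd6, a complex I subunit and the only protein gene here on the opposite strand (chrM:13552-14070, minus), had 1046, 401 and 485 in Larp7-/- hearts and 882, 1526 and 1442 in Larp7+/+ hearts (log2 change -1.08, limma, adjusted p = 0.590). mt.Nd4l, a small complex I subunit inside the copied block, had 111, 97 and 124 in Larp7-/- hearts and 160, 174 and 146 in Larp7+/+ hearts, without overlap (log2 change -0.53, adjusted p = 0.131). mt.Atp8, a small subunit of complex V whose gene overlaps that of mt.Atp6, had 816, 619 and 1010 in Larp7-/- hearts and 1203, 1400 and 1010 in Larp7+/+ hearts (log2 change -0.58, adjusted p = 0.216). The ribosomal RNAs are made from the same strand as the 10 genes. The small one, mt.Rnr1, had 350, 279 and 353 in Larp7-/- hearts and 283, 355 and 280 in Larp7+/+ hearts, with a log2 change of 0.10 (adjusted p = 0.849). The large one, mt.Rnr2, had 1718, 841 and 1331 in Larp7-/- hearts and 1450, 2328 and 1837 in Larp7+/+ hearts (log2 change -0.56, adjusted p = 0.511). Of these 5 genes 0 were called and 4 had a log2 change below 0, against 39.5% of all genes tested. mt.Rnr1 was the one above 0.

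In the adult apex the question was the same for a deletion by Cre from a cardiomyocyte promoter. No common direction was found: 5 of 10 genes had a log2 change below 0, against 30.8% of all 14835 genes tested, and their median was -0.06, against 0.076 over all genes. Of the 10, 0 were called lower and 0 higher (limma), where 0.95% of all genes were called lower and 2.34% higher. At an unadjusted p under 0.05 there were 2, mt.Co1 lower and mt.Co2 higher, where 3.3% of all genes were lower and 9.05% higher. The groups did not overlap in 6 genes, 4 lower (12.8% of all genes) and 2 higher (29.3%). In number 1 the median log2 difference of the 10 genes was -0.16, with 7 below 0, and in number 2 it was 0.05, with 4 below 0. Here too the share of all genes below 0 within single numbers is not given. Each gene has 1 pair of numbers to estimate its spread from, so most SEs rest on spread pooled over genes. The SE of mt.Atp6 is an exception and rests on that gene's own spread.

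mt.Co1 had 54881 and 61165 in mCKO and 72118 and 65835 in CTR, without overlap (log2 change -0.25, SE 0.11, limma, unadjusted p = 0.0233, adjusted p = 0.256). mt.Cytb was lower in both numbers too, with 41547 and 43026 in mCKO and 48030 and 46551 in CTR, at 89.4% of the CTR mean (log2 change -0.16, SE 0.11, adjusted p = 0.657). mt.Nd4 had 15539 and 17605 in mCKO and 19737 and 17671 in CTR, where number 2 was nearly equal (log2 change -0.18, adjusted p = 0.634). These 3 genes lay below CTR in both pairs by amounts that did not pass the test. mt.Nd5 stood the other way, with 18907 and 19546 in mCKO and 17369 and 16729 in CTR (log2 change 0.17, adjusted p = 0.644). mt.Nd1 had 36206 and 37664 in mCKO and 36506 and 35050 in CTR (log2 change 0.05, adjusted p = 0.954). mt.Nd2 had 26474 and 30792 in mCKO and 28673 and 24355 in CTR (log2 change 0.11, adjusted p = 0.854). For mt.Nd1 and mt.Nd2 the numbers pointed in opposite directions, and the groups overlapped.

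The 4 genes that lie almost wholly in the copied block stood far below the other 6 within the adult table. mt.Co2 had 296 and 260 in mCKO and 203 and 241 in CTR (log2 change 0.33, SE 0.14, limma, unadjusted p = 0.0236, adjusted p = 0.258), without overlap. mt.Co3 had 193 and 164 in mCKO and 135 and 164 in CTR (log2 change 0.26, adjusted p = 0.489). mt.Nd3 had 25 and 35 in mCKO and 42 and 32 in CTR (log2 change -0.30, adjusted p = 0.441). For mt.Co2 the mCKO samples were above both CTR samples, while mt.Co3 tied in number 2 and mt.Nd3 pointed both ways. mt.Atp6 had 123 and 347 in mCKO and 570 and 348 in CTR, so that its log2 change of -1.10 (SE 1.10, adjusted p = 0.915) rests on number 1. Per 1000 bases, if not already scaled by length, these 4 genes averaged between 86.2 and 406.4 in mCKO and between 106.3 and 674.0 in CTR. The other 6 averaged at least 10541 per 1000 bases in mCKO and at least 9347 in CTR. Within the 6, mt.Nd1, mt.Co1 and mt.Cytb had the highest levels per 1000 bases in both adult groups, and in mCKO these 3 did not differ by more than the sum of their SDs.

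In the adult table no gene of the 10 had near-equal values with its copy in every sample. mt.Co1 was 414 to 482 times its copy Gm29216 and mt.Nd4 was 210 to 293 times Gm28439. mt.Co2 was 1.62 to 2.07 times Gm28661, mt.Atp6 0.488 to 2.56 times Gm10925, and mt.Co3 0.0757 to 0.275 times Gm28437. Gm28437 had 774 and 2166 in mCKO and 796 and 597 in CTR, the last of which fits the pair sum only if its sign is reversed. The tables were normalized separately, and the ratios of gene to copy differ between them for 6 of the 7 pairs without overlap, all but mt.Atp6. For this reason no level of mt.Co1, mt.Co2, mt.Co3, mt.Nd3, mt.Nd4 or mt.Atp6 is compared between embryo and adult.

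**Figure D4:**
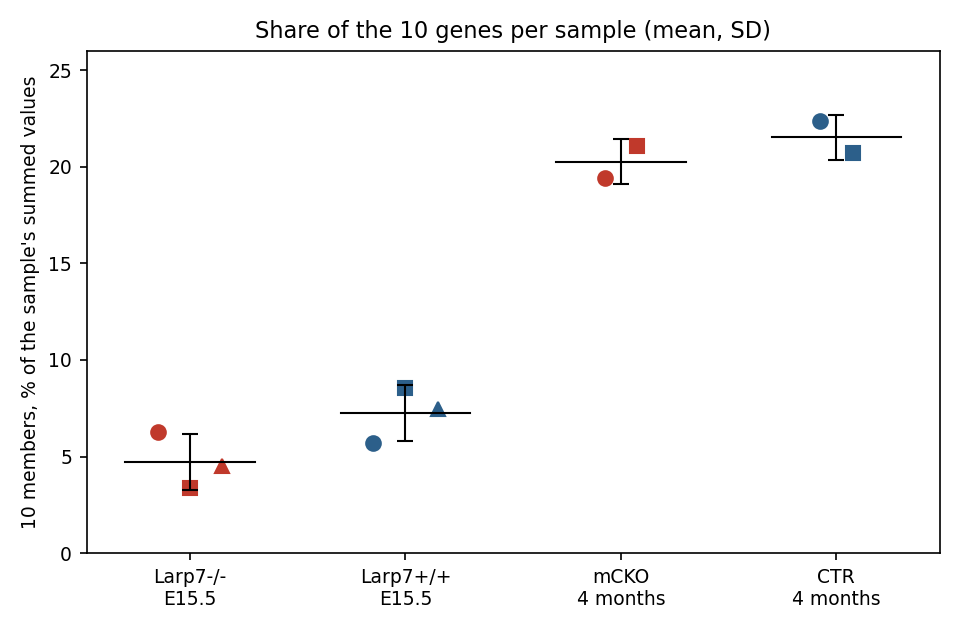
Summed value of the 10 genes as a percentage of each sample's total, 1 point per sample (circles, squares and triangles for numbers 1, 2 and 3), with a horizontal bar at the mean and error bars of 1 SD (n = 3 per embryonic and 2 per adult group). The E15.5 knockout points range from 3.40 to 6.28% and overlap the wild-type points of 5.69 to 8.57%, and the adult knockout and control points overlap, at 19.4 and 21.1% against 22.4 and 20.7%. Embryo and adult were normalized separately, so points are to be read within each model only.

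The 10 genes summed to 19.4 and 21.1% of all values in mCKO and 22.4 and 20.7% in CTR. The 4 little-shared genes were 12.7 ± 0.562% in mCKO and 12.7 ± 0.567% in CTR (SD, n = 2 each). Of the other mitochondrial genes, mt.Rnr1 had 5302 and 4848 in mCKO and 5194 and 5648 in CTR, and mt.Rnr2 had 8410 and 8002 in mCKO and 7409 and 7818 in CTR (limma, adjusted p = 0.877 for both). mt.Nd6 had 6370 and 6935 in mCKO and 6450 and 5885 in CTR. Inside the copied block, mt.Nd4l had 34 and 79 in mCKO and 123 and 78 in CTR. mt.Atp8 (chrM:7766-7969) lies within the same stretch, with no annotated copy of its own and 0% of shared stretches. Its end overlaps mt.Atp6 (chrM:7927-8607), whose copy matches there, but over fewer than 50 bases. Unannotated copies were not searched, so mt.Atp8 cannot be taken as free of a copy. It had 12 and 10 in mCKO and 8 and 10 in CTR. Of these 5 genes 0 were called.

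Whether the knockout effect differed between adult apex and embryonic heart was tested directly, as the adult log2 change minus the E15.5 one. Of the 10 genes 0 were called, as were 0 of all 9769 genes tested (limma, 818 at an unadjusted p under 0.05, which is 8.37%). For 9 of 10 genes the difference was above 0, and for 1 it was below 0, as for 49.8% of all genes, with a median of 0.72 and a range from -0.53 for mt.Atp6 to 1.40 for mt.Co2. mt.Cytb was the 1 gene at an unadjusted p under 0.05, where 4.88% of all genes were above 0 at that level, with log2 changes of -0.16 in the adult and -0.89 at E15.5 (difference 0.73, SE 0.31, unadjusted p = 0.0458, adjusted p = 0.596). mt.Nd1 had log2 changes of 0.05 in the adult and -0.63 at E15.5 (difference 0.68, SE 0.30, adjusted p = 0.597). mt.Nd2 had 0.11 in the adult and -1.27 at E15.5 (difference 1.38, SE 0.59, adjusted p = 0.615). These 3 are among the genes with little shared sequence. Adult and embryonic samples also differ in tissue taken, age and the cells in which Larp7 is deleted, and these cannot be told apart.

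The nuclear genes that serve the same complexes and the mitochondrial RNAs were counted beside the 10. For mitochondrial DNA upkeep and transcription 12 genes were measured at E15.5, with 0 called, 9 below 0 and a median log2 change of -0.06. Of all genes tested there, 0.103% were called lower, 0.529% higher, and 39.5% were below 0. In the adult 16 were measured and 0 were called (median 0.01), where 0.95% of all genes were called lower and 2.34% higher. Among those with a mean of at least 10, the largest log2 changes at E15.5 were those of Mterf4, a mitochondrial termination-factor family protein (21.7 ± 1.15 in Larp7-/- and 14.3 ± 0.577 in Larp7+/+ hearts, SD, n = 3 each, limma, adjusted p = 0.203), and Ssbp1, the mitochondrial single-strand DNA binding protein (37.7 ± 2.89 in Larp7-/- and 45.3 ± 2.08 in Larp7+/+ hearts, adjusted p = 0.503). In the adult they were those of Mgme1, a mitochondrial exonuclease (18.5 ± 0.707 in mCKO and 24.0 ± 1.41 in CTR, SD, n = 2 each, adjusted p = 0.393), and Tfb2m, a mitochondrial transcription factor (33.5 ± 3.54 in mCKO and 39.0 ± 2.83 in CTR, adjusted p = 0.670). Genes of mitochondrial RNA processing and stability gave 0 calls of 18 in the embryo (median 0.02) and 0 of 22 in the adult (median 0.03). Fastkd5 and Ptcd1, both of mitochondrial RNA processing, had log2 changes of 0.37 and 0.35 at E15.5 (adjusted p = 0.600 and 0.357). Mitochondrial translation and insertion factors gave 0 calls of 13 in the embryo (median -0.12) and 0 of 16 in the adult. Gfm1, an elongation factor, had 141 ± 10.8 in Larp7-/- and 168.7 ± 11.2 in Larp7+/+ hearts (SD, n = 3 each), and 162.5 ± 4.95 in mCKO and 211.5 ± 4.95 in CTR (SD, n = 2 each, adjusted p = 0.501 at E15.5 and 0.161 in the adult).

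Nuclear subunits of the complexes had negative medians at both stages. For complex I 3 of 24 measured genes were called lower at E15.5 and 23 of 24 were below 0 (median log2 change -0.52). Of all genes tested at E15.5, 0.103% were called lower and 39.5% were below 0. Ndufb7, an accessory subunit, fell to 84.3 ± 17 in Larp7-/- hearts, against 141.7 ± 17 in Larp7+/+ hearts (SD, n = 3 each, limma, adjusted p = 0.0489), and Ndufc1 (log2 change -0.75) and Ndufa13 (-0.70) fell as well. These calls and that of Larp7 were lost under 3 other settings, which called 0 genes at E15.5. In the adult 1 of 37 was called lower, Ndufs5, with 90 and 132 in mCKO and 174 and 132 in CTR (adjusted p = 0.0440). The difference of Ndufs5 lay wholly in number 1, and its call rests on spread pooled over genes. Of all genes tested in the adult, 0.95% were called lower and 2.34% higher. For complex III 0 of 8 were called in the embryo (median -0.40) and 0 of 9 in the adult (median -0.20). Uqcr11 came nearest at E15.5, with 93.0 ± 12.1 in Larp7-/- and 142 ± 11.1 in Larp7+/+ hearts (SD, n = 3 each, adjusted p = 0.0736). For complex IV 0 of 9 were called at E15.5 (median -0.44), and 1 of 14 in the adult (median -0.19). That gene was Cox7a1, the heart and muscle form of a complex IV subunit, which fell to 444 and 438 in mCKO, against 732 and 738 in CTR (log2 change -0.74, SE 0.14, adjusted p = 3.1e-05). Among complex IV assembly factors 0 of 16 were called in the embryo and 1 of 16 in the adult, Cox19, which rose to 80 and 92 in mCKO, against 59 and 46 in CTR (log2 change 0.71, adjusted p = 0.000239). For complex V 0 of 13 were called in the embryo (median -0.42) and 0 of 15 in the adult (median -0.16). At E15.5 the median of the 10 mitochondrial genes, -0.95, lay below each of these medians, a difference that was not tested.

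Cardiac muscle cells hold most of the heart's mitochondria, so their markers stand beside the result. At E15.5 the 7 cardiomyocyte markers measured (Tnnt2, Tnni3, Tnnc1, Actc1, Mybpc3, Myl2 and Myl3 of a list of 12) summed to 15395 to 19035 in Larp7-/- hearts and 20984 to 24627 in Larp7+/+ hearts, without overlap. All 7 were below 0, with a median log2 change of -0.43, and 1 was called lower, Tnnc1, cardiac troponin C. The called markers were named after their values were seen. Of all genes tested, 0.103% were called lower, 0.529% higher, and 39.5% were below 0. Erythroid markers summed to 4812 to 9626 in Larp7-/- hearts and 3123 to 7708 in Larp7+/+ hearts (8 of 8 measured, 6 not below 0, 0 called). Fibroblast markers summed to 4561 to 5476 in Larp7-/- hearts and 3683 to 4601 in Larp7+/+ hearts (5 of 8 measured, 1 called higher, Pdgfra). Endothelial markers summed to 1193 to 1303 in Larp7-/- and 1102 to 1213 in Larp7+/+ hearts (7 of 8 measured, 0 called), and macrophage markers to 74 to 86 in Larp7-/- and 62 to 74 in Larp7+/+ hearts (5 of 8 measured, 0 called). Smooth muscle and pericyte markers summed to 146 to 169 in Larp7-/- and 171 to 195 in Larp7+/+ hearts (3 of 8 measured, 1 called lower, Rgs5), and epicardial markers to 207 to 299 in Larp7-/- and 146 to 238 in Larp7+/+ hearts (4 of 7 measured, 0 called). Meg3, a nuclear-retained RNA, had 180, 223 and 246 in Larp7-/- hearts and 165, 123 and 99 in Larp7+/+ hearts (log2 change 0.76, limma, adjusted p = 0.113). Besides the cardiomyocyte sums, only those of the smooth muscle and pericyte markers did not overlap between the groups. Of all genes tested, 8.75% lay lower without overlap and 19.3% higher. No measured marker was at 0 in a whole group. The part of any of these in the lower mitochondrial values was not tested, and in whole tissue fewer cells of a type and less RNA per cell cannot be told apart.

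In the adult apex the 12 cardiomyocyte markers summed to 66507 to 68161 in mCKO and 68441 to 70093 in CTR, with 2 called higher, Myh7 and Mybpc3, and 0 lower. Fibroblast markers summed to 2270 to 2587 in mCKO and 1185 to 1500 in CTR (0 of 8 called), macrophage markers to 637 to 638 in mCKO and 534 to 536 in CTR (1 of 8 called, Fcgr1, higher), and epicardial markers to 77 to 116 in mCKO and 24 to 64 in CTR (2 of 7 called, Krt19 and Aldh1a2, higher). Krt19 had 4 and 8 in mCKO and 4 and 0 in CTR, so its call rests on number 2 at very low values. Fcgr1 was also very low, with 9 and 7 in mCKO and 2 and 5 in CTR. Mybpc3 had 4727 and 3909 in mCKO and 2767 and 3584 in CTR, with most of its difference in number 1. Erythroid markers summed to 1273 to 2888 in mCKO and 129 to 1486 in CTR (0 of 7 called). Endothelial markers summed to 759 to 789 in mCKO and 823 to 852 in CTR, and smooth muscle and pericyte markers to 795 to 810 in mCKO and 826 to 839 in CTR, with 0 called in both. Among these sums only the erythroid ones overlapped between the groups. With 2 numbers, no overlap means only that both pairs pointed the same way. Of all genes tested, 12.8% lay lower without overlap and 29.3% higher. Of all genes tested, 0.95% were called lower and 2.34% higher. The part of these markers in the adult values was not tested.

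Of 756 nuclear genes with a mean of at least 100 in both tables, the 8 whose levels ran most alike with the mean profile of the 10 genes over the 10 samples, centred within each table, were C1qbp, Atp5h, Actc1, Ybx1, Mpc2, Tubb4b, Ddx5 and Ndufb11. Their Pearson r, on the log2 scale, ran from 0.963 for C1qbp to 0.937 for Ndufb11. Over the E15.5 samples alone r ran from 0.966 for Mpc2 to 0.989 for Actc1. All of the 10 genes but mt.Atp6 ranged more widely at E15.5 than in the adult. The likeness therefore rests mostly on the E15.5 pairs and says little about the adult apex. The fixed totals tie each knockout sample to its control, so the 10 samples hold 5 independent pairs, and with the best of 756 genes picked these values are descriptions only. C1qbp averaged 152.7 in Larp7-/- and 186.3 in Larp7+/+ hearts and 129.0 in mCKO and 136.5 in CTR. Actc1, cardiac actin, averaged 6873 in Larp7-/- and 8539 in Larp7+/+ hearts and 13051 in mCKO and 12627 in CTR. None of the 8 is a chromosome 1 copy.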

How the data were processed

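Total RNA from mouse heart was extracted with a column kit and DNase, per the labels' protocols. Per the submitters' processing notes, HISAT2, HTSeq and the build mm10 were used. The authors deposited, for each model, a score per gene and sample, namely a whole-number, per-million value. No label or header says whether it is TPM or CPM. Depth is therefore lost and no counting interval is given. Per the file headers the tables also hold the authors' log2 fold changes and p-values. Columns of per-sample values left unused numbered 0.

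Each table was fitted on its own with limma 3.58.1 (R 4.3.3), knockout over control, on log2(value + 1), with the replicate number as a block, the rounding variance (0.0833) added to each gene's variance, eBayes with trend and robust options, and Benjamini-Hochberg adjustment over all tested genes at 0.05. Genes with a value of at least 1 in at least 3 (E15.5) or 2 (adult) samples were tested. The difference between models was fitted over all 10 samples. The block was used because same-numbered values add to a fixed total, within 2, in 8328 of 8366 E15.5 and 8642 of 8658 adult genes with a mean of at least 10; it is no pairing stated in the labels. Sequence sharing and copies came from GENCODE M21 transcripts (Python 3.11.15). Of each nuclear list, called genes or else the 2 largest changes among genes with a mean of at least 10 are eligible to be named, from which examples are given; likeness was ranked by Pearson r. The genes, lists and tests were chosen with earlier results of these data known. Alternatives were the block, rounding variance, pseudocount, filter, scaling, eBayes options, each sample left out and, added after seeing the data, copies summed and crossed numbers.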

Additional observations from a re-analysis of the deposited data

Results flagged for a closer look

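mt.Co2 was singled out because its groups did not overlap in either table but lay in opposite order: mCKO above CTR in the adult apex (log2 change 0.33), and Larp7-/- below Larp7+/+ at E15.5 (log2 change -1.07). The difference, adult minus E15.5, was 1.40 (SE 1.06) and did not pass the direct test (limma, adjusted p = 0.770). The E15.5 value was -0.15 without number 2. Gene and annotated copy are identical over 681 bases, and the ratio of mt.Co2 to Gm28661 was 1.62 to 2.07 in the adult and 0.880 to 0.999 at E15.5; the part of the copy in this difference was not tested.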

How the results depend on the processing

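At E15.5 the median log2 change of the 10 genes, -0.95, stayed between -1.32 and -0.61 without any 1 sample, and the adult median of -0.06 moved between -0.16 and 0.05. With the block, leaving out a sample also removes its same-numbered partner, and in the adult this leaves 1 pair, with no test. At E15.5 the count of the 10 genes called lower was 0 in the reported fit, 1 to 4 without 1 sample, 1 with no replicate block, 1 with a pseudocount of 10 (mt.Cytb in both, limma, adjusted p = 0.0468 and 0.0439) and 5 with no filter on low values (mt.Nd2, mt.Nd3, mt.Nd4, mt.Nd5 and mt.Cytb). Over its alternatives the adjusted p of mt.Cytb ranged from 0.00454 to 0.529. Genes called lower and higher at E15.5 were 14 and 72 in the reported fit, 40 to 87 and 171 to 422 without 1 sample, 174 and 430 with no replicate block, 339 and 701 with neither block nor rounding variance, 40 and 215 with a pseudocount of 10, 121 and 480 with no filter, 7 and 12 with median-of-ratios scaling, and 4 and 8 when scaled to genes outside mitochondrial DNA. They were 0 and 0 with no rounding variance, with a mean of at least 10, and with no trend and robust options (1893 genes at an unadjusted p under 0.05 in the reported fit). In the adult 141 genes were lower and 347 higher, against 297 and 833 with no rounding variance and 489 and 1133 with neither block nor rounding variance. Without trend and robust options mt.Atp6 was the 1 adult gene of the 10 called lower (adjusted p = 0.0152). Crossing the adult numbers, chosen after seeing the data, gave 2 lower and 4 higher of the 10 genes and 1924 lower and 4361 higher of all. The fixed totals make the 2 crossed differences of a gene nearly equal in advance. Almost no spread is then left, so these counts test nothing. For the difference between models, genes lower and higher were 136 and 245 with no replicate block, 171 and 300 with neither block nor rounding variance, 1 higher with no filter, and 0 to 4 and 0 to 14 without 1 sample. The fits without the block count the mirrored values of a pair as separate samples, which overstates their evidence. The cause of the other changes was not tested.

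Single values that changed sign or reached 0 were adult mt.Nd1 (-0.017 with median-of-ratios scaling, -0.012 to 0.104 without 1 sample), the adult mt.Nd2 (-0.12 to 0.34), mt.Nd3 (-0.73 to 0.13) and mt.Co3 (0 to 0.51) without 1 sample, mt.Co1 at E15.5 (-1.12 to 0.18), and, for the difference, mt.Co1 (-0.43 to 0.87) and mt.Atp6 (-1.63 to 0.57, and 0.29 with the copy summed). Scaling moved the median of all genes by under 0.1. Depth is unknown and sets no limit that can be stated.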

Other observations

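Mitochondrial transfer RNAs, short RNAs that lie between the other genes, numbered 19 in the E15.5 table and 15 in the adult table. Without mt.Ts1 they summed to 111, 43 and 93 in Larp7-/- hearts and 85, 156 and 100 in Larp7+/+ hearts, and to 517 and 602 in mCKO and 497 and 418 in CTR. At E15.5 limma called 0 of the 17 tested, with 1 below an unadjusted p of 0.05, where 3.62% of all genes were lower and 10.3% higher. In the adult limma called 1 of 13, where 0.95% of all genes were called lower and 2.34% higher. That was mt.Tl1, a leucine transfer RNA between mt.Rnr2 and mt.Nd1 (chrM:2676-2750), with 37 and 52 in mCKO and 37 and 21 in CTR (log2 change 0.63, SE 0.17, adjusted p = 0.0120). Its difference lay wholly in number 2, with log2 differences of 0 and 1.27 in the 2 numbers. The SE rests mostly on spread pooled over genes, so this p does not measure the spread of mt.Tl1 itself. mt.Ts1, a serine transfer RNA on the minus strand at the end of mt.Co1 (chrM:6870-6938), had 860, 18 and 573 in Larp7-/- hearts and 286, 1165 and 573 in Larp7+/+ hearts, where the value of 18 fits the pair sum only if its sign is reversed. In the adult mt.Ts1 was 2 in all 4 samples. mt.Ts1 also lies inside the stretch copied to chromosome 1 (chrM:6381-11042), though 0% of its 50-base stretches are shared with other annotated transcripts. Like Gm29216 at E15.5, it was higher in the knockout in number 1 and far lower in number 2. The part of the copy in its values was not tested.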
